A study of Mus musculus with 19 samples.

Results

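The 9 genes followed here mark the medium spiny neurons of the striatum, and they were read out of 55487 genes measured in RNA from mouse cerebral cortex. They are Drd1, Isl1, Drd2, Gpr6, Ppp1r1b, Rgs9, Pde10a, Scn4b and Six3. They were chosen by name, with their levels by treatment and by library in these data already known, so the differences given for them between treatments are a description and support nothing. The edgeR expression filter kept 8 of the 9 among 19105 genes, and Isl1 fell below it. The filter can pass a gene through the libraries where it is high, so the 8 do not stand for the whole set.

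Cortex came from male P301S/E4 mice aged 41 weeks, whose name gives a tau mutation linked to frontotemporal dementia and an apolipoprotein E allele. In the lemborexant group (10 libraries) mice had received this dual orexin receptor antagonist by daily gavage, 30 mg/kg at ZT13 (zeitgeber time), from an age of 7.5 months until 9.5 months. In the vehicle group (9 libraries) they had received 0.5% methylcellulose on the same schedule. Both groups carry the P301S/E4 genotype, no mice without it are in the comparison, and the promoter that drives the tau transgene is not given in the sources used here. The labels do not state whether each library is its own mouse, and p-values reflect the spread among libraries, which may be technical.

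Medium spiny neurons are the GABAergic output cells of the striatum, which lies beneath the cortex and receives dense dopamine input. Direct pathway cells carry D1 dopamine receptors, which raise cyclic AMP, and indirect pathway cells carry D2 receptors, which lower it. Both kinds share the machinery that turns cyclic AMP into protein phosphorylation, and cortical neurons use some of the same genes at lower levels.

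Libraries held 22993714 to 31795633 estimated reads on genes after lemborexant and 20185098 to 29948038 after vehicle. Levels are CPM (reads scaled to a common library total, adjusted with edgeR's TMM factors) unless TPM, which also corrects for gene length, is named. Lemborexant replicates 1 and 10, 3 and 8, and 4 and 9 were nearly alike, and the chi-square of their counts divided by its degrees of freedom was 3.08 to 3.66, where all 168 other pairings gave 12.2 to 274. They were kept apart as labelled, and values are also given with each pair summed, which leaves 7 lemborexant units and 9 vehicle libraries. Slc17a7, a glutamate transporter that defines cortical excitatory neurons, was 14.6 CPM in lemborexant 7 and between 91.9 and 121 CPM in the 9 remaining lemborexant libraries, against 103 to 206 CPM after vehicle. In each of the 2 ranges of library numbers every lemborexant number lies below every vehicle number, so that order and treatment cannot be told apart.

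The promoter windows below are shown for Drd1, the D1 receptor gene described first, and for Isl1, Gpr6 and Six3, each of which had 3 reads or fewer in at least 1 lemborexant library and lay above the vehicle range in others. They are RefSeq sequences of GRCm38.p6, each 300 bases long, from 250 before to 50 after a transcription start, written 5′ to 3′ on the gene's strand. Capitals mark matches, on either strand, to a TATA box (TATAAA), a GC box (GGGCGG), a cyclic AMP response element (TGACGTCA) or its shorter core (TGACG), or a homeodomain core (TAATTA).

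Drd1, chr13:54055609-54055908, minus strand: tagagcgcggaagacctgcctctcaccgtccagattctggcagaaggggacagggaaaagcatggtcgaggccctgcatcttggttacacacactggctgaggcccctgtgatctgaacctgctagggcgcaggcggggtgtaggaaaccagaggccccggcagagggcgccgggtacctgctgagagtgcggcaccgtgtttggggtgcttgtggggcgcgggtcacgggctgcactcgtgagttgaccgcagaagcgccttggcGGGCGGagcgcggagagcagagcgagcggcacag
Isl1, chr13:116309639-116309938, minus strand: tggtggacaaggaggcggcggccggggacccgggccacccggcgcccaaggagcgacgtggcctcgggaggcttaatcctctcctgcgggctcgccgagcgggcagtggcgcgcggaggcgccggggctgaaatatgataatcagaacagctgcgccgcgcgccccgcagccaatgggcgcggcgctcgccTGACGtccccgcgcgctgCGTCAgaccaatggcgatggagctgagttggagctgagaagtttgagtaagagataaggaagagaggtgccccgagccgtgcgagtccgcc
Gpr6, chr10:41072241-41072540, minus strand: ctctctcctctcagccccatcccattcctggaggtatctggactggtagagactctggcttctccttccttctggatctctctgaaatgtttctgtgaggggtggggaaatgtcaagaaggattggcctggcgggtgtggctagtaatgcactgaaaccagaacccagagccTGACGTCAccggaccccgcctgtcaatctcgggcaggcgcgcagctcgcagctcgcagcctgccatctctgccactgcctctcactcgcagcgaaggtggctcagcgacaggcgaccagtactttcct
Six3, chr17:85620584-85620883, plus strand: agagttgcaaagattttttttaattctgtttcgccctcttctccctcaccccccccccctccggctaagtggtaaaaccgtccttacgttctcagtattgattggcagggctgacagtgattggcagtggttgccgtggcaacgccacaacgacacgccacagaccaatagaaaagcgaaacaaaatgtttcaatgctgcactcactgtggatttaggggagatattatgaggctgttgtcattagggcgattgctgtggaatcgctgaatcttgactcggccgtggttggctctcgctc

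The Drd1 window shown held 1 GC box, a motif found in 35.7% of all 32851 windows of this length. Drd1 has another window, at 54054731 to 54055030 and not shown, with 1 GC box and a GC content of 59.3%. In the Isl1 window 2 such cores (TGACG) were found, and at least 1 of these occurs in 20.8% of windows. The Gpr6 window was the one member window with a full cyclic AMP response element, which 1.79% of windows hold, and its 2 shorter cores lie inside that element. No TATA box (13.6% of windows) or homeodomain core (5.29%) was found in these 4, and the Six3 window held none of the motifs. In the windows shown, GC content was 65.7% for Drd1, 69.0% for Isl1, 58.7% for Gpr6 and 50% for Six3, against a median of 52.7% over all windows. These matches describe letters and not binding.

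On the per length scale the 9 genes spanned a wide range of levels in vehicle cortex. Ppp1r1b had a median of 39.1 TPM (23.3 to 61.8 over 9 libraries), and no vehicle library of another of the 9 genes reached its lowest value. Pde10a followed at 6.17 TPM and Rgs9 at 3.02 TPM, with overlapping ranges (2.88 to 9.21 and 1.86 to 5.25 TPM). Scn4b (1.87), Drd1 (1.60), Gpr6 (0.811) and Drd2 (0.492) came next in vehicle medians, and each overlapped its neighbour in this order. Six3 (0.156 TPM) and Isl1 (0.082 TPM), the developmental factors, were lowest. The order of medians after lemborexant was the same except that Six3 (0.963 TPM) stood above Drd2 (0.832 TPM).

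Drd1 (ENSMUSG00000021478, chromosome 13, 54051183 to 54055705, minus strand, GRCm38) encodes the D1 dopamine receptor of direct pathway cells. Like the other 8 it is annotated as protein-coding and was measured over the whole gene. In lemborexant replicates 1 to 10 it stood at 8.18, 2.96, 6.03, 14.4, 3.01, 5.33, 4.01, 6.46, 12.01 and 8.32 CPM. Vehicle replicates 1 to 9 had 5.93, 1.75, 1.68, 2.45, 1.43, 3.31, 3.99, 2.996 and 3.63 CPM. Lemborexant 1, 3, 4, 8, 9 and 10, which are the 3 nearly alike pairs, lay above the highest vehicle library, and lemborexant 2, 5, 6 and 7 lay inside the vehicle range. Drd1 averaged 7.07 ± 3.76 CPM after lemborexant and 3.02 ± 1.42 CPM after vehicle (SD, n = 10 and 9), a fitted log2 change of 1.23 ± 0.32 (SE). With the pairs summed the lemborexant mean was 6.09 ± 3.60 CPM (SD, n = 7), with 3 units above the vehicle range, and the log2 change was 1.03 ± 0.34. In bulk tissue a larger number of cells of a type and more RNA per cell cannot be told apart.

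Isl1 (ENSMUSG00000042258, chromosome 13, 116298281 to 116309689, minus strand) encodes a LIM homeodomain factor needed for direct pathway neurons, and it is also used by cholinergic and hypothalamic neurons. It reached 44.6 CPM (1458 reads) in lemborexant 7, 3.40 and 2.01 CPM in lemborexant 4 and 9, and 1.07 CPM or less in the other 7 lemborexant libraries. Vehicle libraries held 0 to 1.18 CPM, with a median of 0.125 CPM. No read was assigned in lemborexant 5 and 6 or in vehicle 3, 5 and 7, which allows a level of up to 0.11 to 0.139 CPM (3 reads per library). Lemborexant 7, 4 and 9 lay above every vehicle library. The expression filter left Isl1 out of the edgeR test on 19 libraries. Fitted without the filter, its log2 change was 4.50 ± 1.44 (SE) in edgeR and 1.80 ± 1.09 in DESeq2, values that rest on few reads outside those libraries. Drd1 and Isl1, both genes of the direct pathway, parted in lemborexant 1 and 10, where Drd1 was 8.18 and 8.32 CPM and Isl1 0.0382 and 0.109 CPM.

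**Figure D1:**
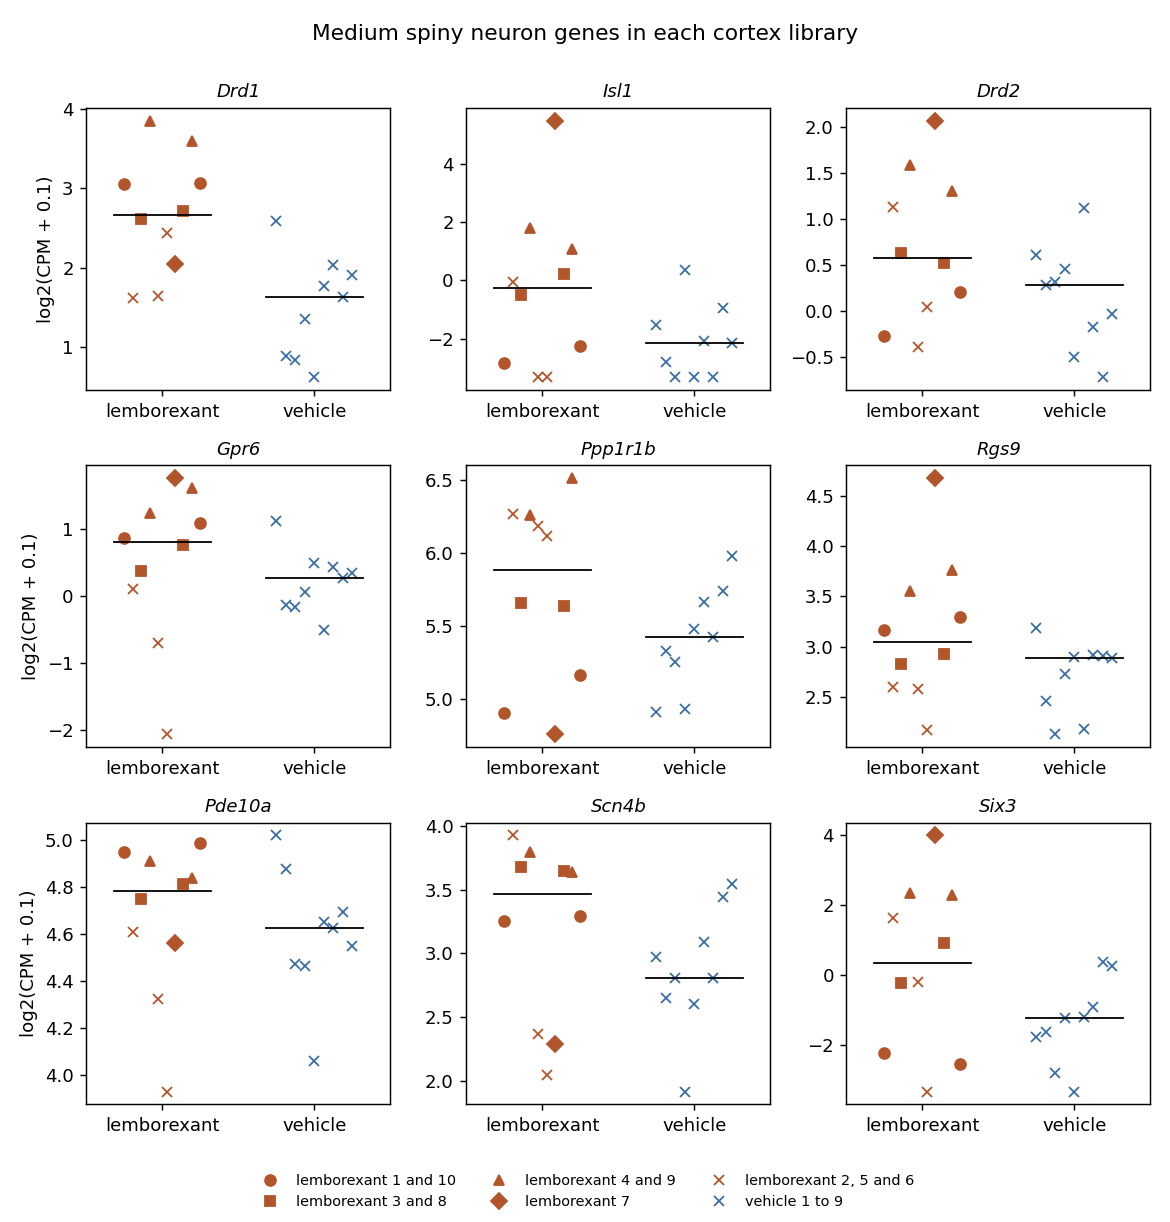
Level of each of the 9 genes in every library as log2(CPM + 0.1), with lemborexant on the left and vehicle on the right of each panel; each mark is 1 library, marks show the nearly alike pairs and lemborexant 7, and the bar is the group median. Lemborexant 4 and 9 sit above all vehicle libraries for Drd1 (14.4 and 12.01 CPM), while lemborexant 7 leads for Isl1 (44.6 CPM), Rgs9 (25.4 CPM) and Six3 (15.6 CPM).

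Drd2 (ENSMUSG00000032259, chromosome 9, 49340627 to 49408177, plus strand) encodes the D2 dopamine receptor of indirect pathway cells. Its lemborexant libraries ranged from 0.660 to 4.10 CPM with a median of 1.39 CPM, and its vehicle libraries from 0.506 to 2.07 CPM with a median of 1.12 CPM. Lemborexant 7 (4.10 CPM), 4 (2.92), 9 (2.38) and 2 (2.09) lay above the vehicle range and the other 6 inside it. The fitted log2 change was 0.70 ± 0.34 (SE), or 0.75 ± 0.38 with the pairs summed. As TPM, the Drd1 level was 0.738 to 8.56 times the Drd2 level after lemborexant, with a median of 3.87, and 1.11 to 5.50 times after vehicle, with a median of 1.79. Lemborexant 7 had the lowest of these ratios and lemborexant 1 and 10 the highest, at 8.56 and 6.14.

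Gpr6 (ENSMUSG00000046922, chromosome 10, 41069977 to 41072285, minus strand) encodes a receptor that keeps cyclic AMP high in indirect pathway cells. Lemborexant libraries held 0.139 to 3.28 CPM, with a median of 1.65 CPM, and vehicle libraries 0.602 to 2.06 CPM, with a median of 1.10 CPM. Lemborexant 7, 9 and 4 (3.28, 2.96 and 2.26 CPM) lay above the vehicle range, and lemborexant 5 and 6 (0.513 and 0.139 CPM) below it. Only 3 reads were assigned in lemborexant 6, where the summed level of 6 oligodendrocyte markers was the highest of all libraries (14530 CPM); their part in the result was not tested. Its fitted log2 change was 0.59 ± 0.38 (SE).

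Ppp1r1b (ENSMUSG00000061718, chromosome 11, 98348404 to 98357796, plus strand) encodes DARPP-32, which inhibits protein phosphatase 1 once the cyclic AMP dependent kinase has phosphorylated it. Lemborexant libraries ranged from 26.9 to 91.1 CPM with a median of 59.6 CPM, and vehicle libraries from 29.9 to 62.9 CPM with a median of 42.7 CPM. Lemborexant 2, 4, 5, 6 and 9 (69.1 to 91.1 CPM) lay above the vehicle range, and lemborexant 7 (26.9 CPM) was the lowest library of all. It was thus high in lemborexant 5 and 6, where Drd1 (3.01 and 5.33 CPM) and Gpr6 (0.513 and 0.139 CPM) were not above the vehicle range. A fitted log2 change of 0.41 ± 0.21 (SE) summarised the contrast.

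Rgs9 (ENSMUSG00000020599, chromosome 11, 109225355 to 109298129, minus strand) encodes a regulator that shortens G protein signalling by dopamine receptors. Its lemborexant libraries held 4.41 to 25.4 CPM, with a median of 8.20 CPM, and its vehicle libraries 4.28 to 9.02 CPM, with a median of 7.30 CPM. Lemborexant 7, 9, 4 and 10 (25.4, 13.51, 11.7 and 9.69 CPM) lay above every vehicle library. The fitted log2 change of 0.60 ± 0.26 (SE) was 0.33 without lemborexant 7.

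Pde10a (ENSMUSG00000023868, chromosome 17, 8525372 to 8986648, plus strand) encodes the phosphodiesterase that breaks down cyclic AMP and cyclic GMP in medium spiny neurons. Lemborexant libraries ranged from 15.1 to 31.6 CPM with a median of 27.4 CPM, and vehicle libraries from 16.5 to 32.3 CPM with a median of 24.6 CPM. The groups overlapped almost entirely, and no lemborexant library passed the highest vehicle library. The fitted log2 change was 0.07 ± 0.13 (SE), and it was -0.0042 ± 0.15 with the pairs summed. On the TPM scale 4 lemborexant libraries lay above the vehicle range and the means were 8.37 ± 2.46 and 6.11 ± 1.98 TPM (SD, n = 10 and 9), a ratio of 1.37 against 1.05 in CPM. The median gene was itself shifted up by 0.18 on the log2(TPM + 1) scale.

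Scn4b (ENSMUSG00000046480, chromosome 9, 45138395 to 45154152, plus strand) encodes a sodium channel beta subunit that is abundant in striatal neurons. Lemborexant libraries held 4.03 to 15.1 CPM, with a median of 11 CPM, and vehicle libraries 3.67 to 11.6 CPM, with a median of 6.89 CPM. Lemborexant 2, 3, 4, 8 and 9 (12.4 to 15.1 CPM) lay above the vehicle range, while lemborexant 5, 6 and 7 (5.06, 4.03 and 4.78 CPM) lay in its lower part. The fitted log2 change was 0.39 ± 0.25 (SE).

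Six3 (ENSMUSG00000038805, chromosome 17, 85613608 to 85629302, plus strand) encodes a homeodomain factor of the forebrain that acts in the development of indirect pathway neurons and of the hypothalamus and eye. In lemborexant replicates 1 to 10 it stood at 0.115, 2.96, 0.759, 4.99, 0.770, 0, 15.6, 1.77, 4.798 and 0.0723 CPM. Vehicle libraries held 0 to 1.18 CPM with a median of 0.329 CPM. Lemborexant 2, 4, 7, 8 and 9 lay above the vehicle range, and lemborexant 6, with no read (up to 0.139 CPM), lay with the lowest vehicle library. The fitted log2 change was 2.89 ± 0.90 (SE), 2.07 without lemborexant 7 and 1.10 without lemborexant 4, 7 and 9. Six3 overlaps in part the opposite-strand gene Six3os1, at 0 to 9.67 CPM after lemborexant and 0 to 0.918 CPM after vehicle. The strand setting of the counting is not given, so it is not known how reads from the stretch shared by both genes were assigned.

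**Figure D2:**
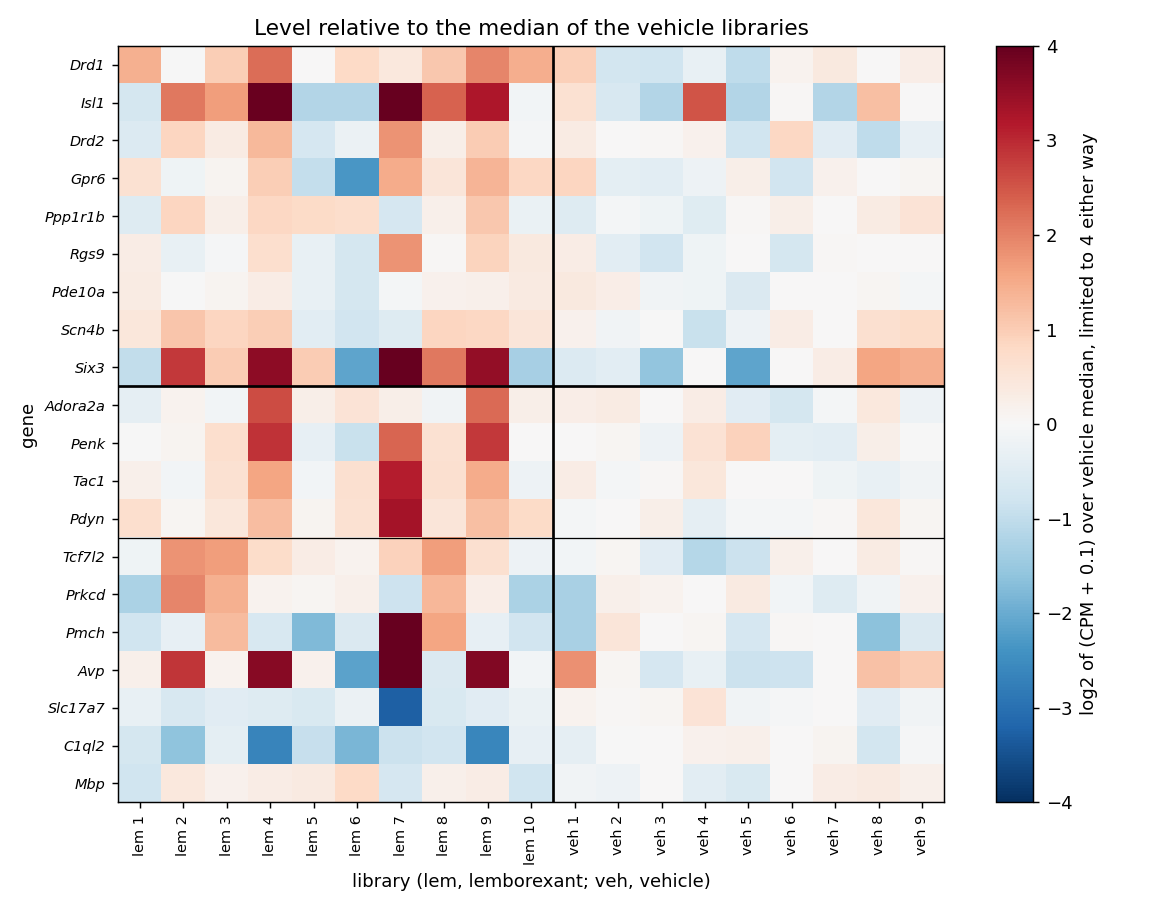
Log2 of each library's level (CPM + 0.1) over the vehicle median, limited to 4 either way, for the 9 genes (above the thick line), 4 other medium spiny neuron genes and 7 markers of other tissue; the 10 lemborexant libraries are left of the vertical line and the 9 vehicle libraries right of it. Lemborexant 4 and 9 are raised for Drd1, Isl1, Six3, Adora2a and Penk, whereas lemborexant 7 is raised for Isl1, Six3, Pdyn, Pmch and Avp and low for Slc17a7.

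Read library by library, the genes formed separate patterns. In both lemborexant 4 and 9, 7 of the 8 genes past the filter (all but Pde10a) lay above the highest vehicle library, as did 9.23% of all genes tested. Of 23 other medium spiny neuron genes past the filter, 12 lay above the highest vehicle library in both and 2 below the lowest (8.9% of all genes were below). The 2 were Bcl11b, a transcription factor also used by cortical projection neurons, at 0.561 and 0.505 times the vehicle median, and Gng7, a G protein gamma subunit, at 0.767 and 0.751 times. Adora2a, the adenosine receptor of indirect pathway cells, stood at 10.2 and 7.96 CPM there, against 2.15 CPM at most after vehicle. Penk, the enkephalin precursor of the same cells, stood at 254 and 247 CPM, against 65.3 CPM at most after vehicle. Genes of both pathways were among those high in these 2 libraries.

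Lemborexant 7 was different. Drd2, Gpr6, Rgs9 and Six3 lay above every vehicle library (18.7% of all genes did), as did Isl1, but Drd1 (4.01 CPM) and Adora2a (1.90 CPM) lay inside the vehicle range. Tac1 and Pdyn, the peptide precursors of substance P and dynorphin in direct pathway cells that many other neurons also use, reached 115 and 135 CPM there, against at most 17.9 and 18.4 CPM after vehicle. Of the 23 other medium spiny neuron genes, 11 lay above and 6 below the vehicle range in lemborexant 7 (21.0% of all genes were below). The 6 were Chrm4, Gng7, Bcl11b, Foxp1, Meis2 and Arpp21, among which Bcl11b stood at 0.215 and the muscarinic receptor gene Chrm4 at 0.221 times the vehicle median. The summed level of 10 hypothalamus markers was 2587 CPM in lemborexant 7 and 4.27 to 45.4 CPM elsewhere after lemborexant, against 4.75 to 10.5 CPM after vehicle. Pmch, the melanin-concentrating hormone precursor, was at 1170 CPM and Avp, the vasopressin precursor, at 454 CPM in lemborexant 7. In both lemborexant 4 and 9, 2 of the 4 hypothalamus markers tested also lay above every vehicle library (9.23% of all genes did). Avp stood there at 8.06 and 8.30 CPM, against 2.21 CPM at most after vehicle. Trh, a hormone precursor, stood at 7.58 and 9.32 CPM, against 0.918 CPM at most. Avp was also above the vehicle range in lemborexant 2, and Trh in lemborexant 1, 2, 3, 8 and 10. Chat, the acetylcholine enzyme gene, ranged over 0 to 2.20 CPM after lemborexant and 0 to 0.294 CPM after vehicle. It was highest in lemborexant 7, 4, 9 and 2 (2.20, 1.89, 1.43 and 1.05 CPM). The part of these cells in the levels of Isl1, Six3, Tac1 and Pdyn was not tested.

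The remaining lemborexant libraries showed fewer high members. In lemborexant 1 and 10, Drd1 was the one member above every vehicle library in both (12.4% of all genes), and the peptide precursor Pdyn was above in both as well. In lemborexant 3 and 8, Drd1 and Scn4b were above in both (5.82% of all genes). Lemborexant 2 had Drd2, Ppp1r1b, Scn4b and Six3 above the vehicle range (20.8% of all genes). In lemborexant 5 and 6 it was Ppp1r1b alone (12.3% and 19.8% of all genes). Vehicle 1 had the highest vehicle level of Drd1 (5.93 CPM), Gpr6 (2.06 CPM), Rgs9 (9.02 CPM) and Pde10a (32.3 CPM).

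**Figure D3:**
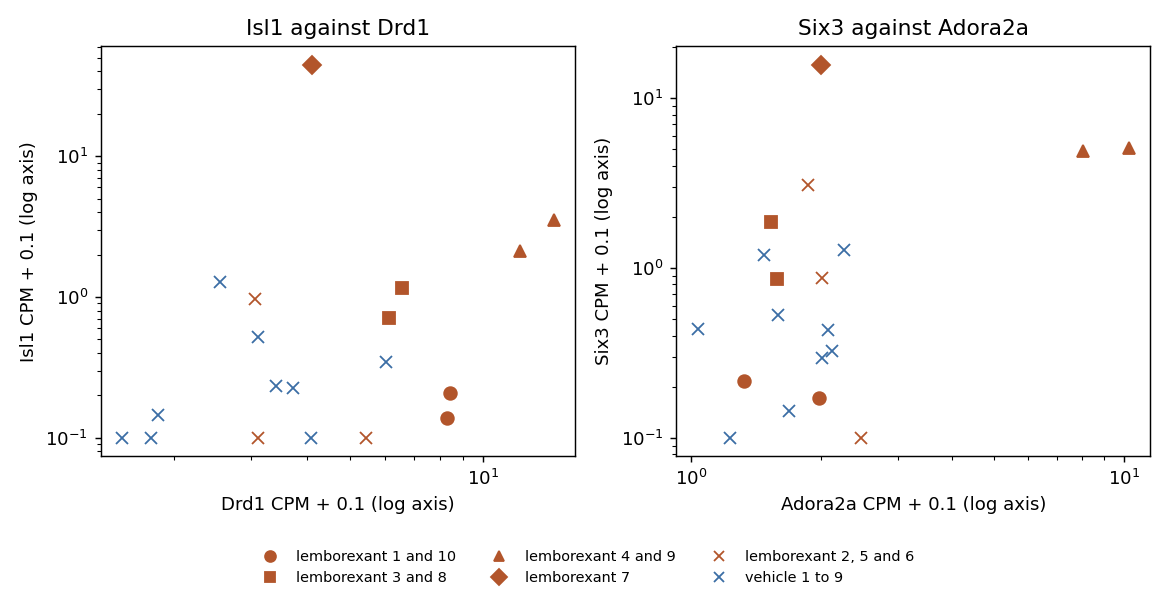
Isl1 against Drd1 (left) and Six3 against Adora2a (right) in each library, as CPM + 0.1 on log axes, with each mark 1 library. Lemborexant 7 has the highest Isl1 (44.6 CPM) and Six3 (15.6 CPM) at Drd1 and Adora2a levels inside the vehicle range, while lemborexant 4 and 9 are high for both genes of each panel.

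Between treatments, all 8 genes past the filter had a fitted log2 change above 0, as did 53.6% of all genes tested, and their median change was 0.60 against 0.03 for all 19105 genes. One of the 8, Drd1, had an adjusted p under 0.05 in edgeR's quasi-likelihood test (p = 0.0438 with Benjamini-Hochberg adjustment over all genes), where 2.61% of all genes did (0.953% as higher). With the pairs summed it was 0 of 8 (0.0% of 19226 genes; 2 of the 8 and 21.3% of all genes at an unadjusted p under 0.05), and no other tool was run on the summed pairs. Without lemborexant 4 and 9 it was also 0 of 8 (0.0% of 19046 genes; 2 of the 8 and 18.7% of all genes at an unadjusted p under 0.05), with a median change of 0.45. Without lemborexant 4, 7 and 9 it was again 0 of 8 (0.0% of 19159 genes; 1 of the 8 and 15.4% of all genes at an unadjusted p under 0.05), with a median change of 0.21. In that last fit Drd1 had a log2 change of 0.92 ± 0.30 (SE), Drd2 of 0.10 ± 0.30 and Rgs9 of 0.093 ± 0.18.

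**Figure D4:**
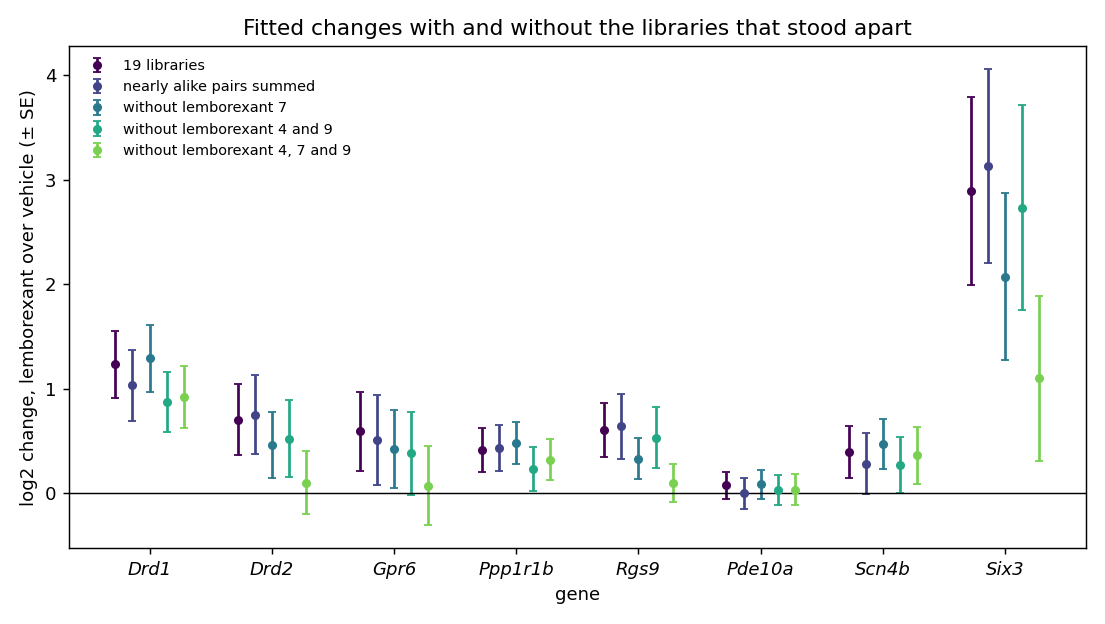
Fitted log2 change (lemborexant over vehicle, points) with its SE (bars) for the 8 genes past the expression filter, in all 19 libraries, with nearly alike pairs summed, and without the libraries that stood apart. Six3 moves most, between 3.13 and 1.10, and Pde10a stays near 0.

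The other genes of the cell type, which were listed apart from the 9, were mixed in direction. Of 26 listed, 25 had an identifier in the tables and 23 passed the filter, with 17 higher and 6 lower and a median log2 change of 0.20. EdgeR called 0 of them (11 at an unadjusted p under 0.05, as were 25.7% of all genes). DESeq2 called 4 higher and 1 lower, against 3.97% and 4.71% of all genes, and limma on log2(TPM + 1) called 0 (0.711% of all genes). Pdyn had a log2 change of 1.26 ± 0.36 (SE) and lay above every vehicle library in 8 of 10 lemborexant libraries (edgeR adjusted p = 0.0602). Without lemborexant 7 its log2 change was 0.64 (edgeR adjusted p = 0.0352), but it did not pass with the pairs summed, at 1.44 with lemborexant 7 and 0.55 without (edgeR adjusted p = 0.101 and 0.145). Penk (1.29), Tac1 (1.18) and Adora2a (0.99) had changes of similar size that did not pass. Without lemborexant 4 and 9 the log2 change of Adora2a was 0.11, and without lemborexant 4, 7 and 9 that of Penk was -0.056. Adcy5, the adenylyl cyclase of striatal neurons, averaged 57.0 ± 11.1 CPM after lemborexant and 47.5 ± 6.29 CPM after vehicle (SD, n = 10 and 9; edgeR adjusted p = 0.145).

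Genes of the dopamine and cyclic AMP pathway more often had a change below 0. Of 30 listed, 28 passed the filter, 7 higher and 21 lower (46.4% of all genes were lower) with a median log2 change of -0.16. EdgeR called 1 higher and 1 lower, against 0.953% and 1.65% of all genes. Drd5, the D1-like dopamine receptor of cortex and hippocampus, fell to 4.27 ± 2.42 CPM after lemborexant, against 10 ± 2.68 CPM after vehicle (SD, n = 10 and 9). Its log2 change was -1.23 ± 0.29 (SE, edgeR adjusted p = 0.0347, 0.0757 with the pairs summed), and it lay below the vehicle range in 8 of 10 lemborexant libraries, all but 1 and 10. Prkacb, a catalytic subunit of the cyclic AMP dependent kinase, rose to 241 ± 56.1 CPM after lemborexant, against 155 ± 39.3 CPM after vehicle (SD, n = 10 and 9; edgeR adjusted p = 0.0421, 0.133 with the pairs summed). Gnal, the stimulatory G protein subunit that couples Drd1 and Adora2a to adenylyl cyclase in the striatum, was 69.0 ± 12.3 CPM after lemborexant and 53.6 ± 5.89 CPM after vehicle (SD, n = 10 and 9; edgeR adjusted p = 0.0571) and lay above the vehicle range in 8 of 10 lemborexant libraries. Prkar2b, a regulatory subunit of the kinase, was at 9.66 ± 2.45 and 9.01 ± 1.91 CPM (SD, n = 10 and 9). The 2 calls became 0 with the pairs summed (13 of the 28 and 21.3% of all genes at an unadjusted p under 0.05). They also became 0 without lemborexant 4 and 9 (9 of the 28 and 18.7% of all genes at an unadjusted p under 0.05). On log2(TPM + 1) the split was 19 higher and 9 lower (76.6% of all genes were higher).

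Within the libraries numbered 1064 to 1602 (7 lemborexant and 7 vehicle), the log2 change was 1.10 ± 0.40 (SE) for Drd1, -1.37 ± 0.32 for Drd5 and 0.61 ± 0.21 for Prkacb. Within those numbered 859 to 933 (3 lemborexant and 2 vehicle) it was 1.43 ± 0.32 (SE) for Drd1, -0.80 ± 0.60 for Drd5 and 0.68 ± 0.10 for Prkacb. None of the 3 passed within a range, with edgeR adjusted p of 0.0579 or more. Each lemborexant library numbered 859 to 933 (8, 9 and 10) is nearly alike to a library in the other range (3, 4 and 1). The lemborexant sides of the ranges are therefore not independent, and their changes do not count as separate evidence.

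Markers of neighbouring tissue also differed between libraries. The summed level of 8 hippocampus markers was lowest in lemborexant 7 and 6 (27.7 and 27.8 CPM), followed by lemborexant 9 and 4 (37.1 and 38.3 CPM). It was 27.7 to 184 CPM over all lemborexant libraries, against 170 to 354 CPM after vehicle. Of these 8, 2 fell in edgeR's test (1.65% of all genes did), C1ql2 and Pkp2 (edgeR adjusted p = 0.0441 and 0.0376). With the pairs summed it was 0 (0.0% of all genes), and 8 of the 8 and 21.3% of all genes at an unadjusted p under 0.05. Hippocampal Fibcd1, the most abundant of the 8, was not called (edgeR adjusted p = 0.0689). It stood at 6.86 to 79.8 CPM after lemborexant and 65.4 to 175 CPM after vehicle. The summed level of 7 thalamus markers was 68.6 to 313 CPM after lemborexant, highest in 2, 3 and 8, and 52.1 to 104 CPM after vehicle. Of the 6 tested, 2 rose (0.953% of all genes did), Tcf7l2 and Rgs16 (edgeR adjusted p = 0.0438 and 0.0347). With the pairs summed it was 0, and 5 of the 6 and 21.3% of all genes at an unadjusted p under 0.05. Tcf7l2 had 33.0 to 135 CPM after lemborexant, against 17.4 to 48.4 CPM after vehicle. Prkcd, which was not called (edgeR adjusted p = 0.268), had 7.88 to 75.6 CPM, against 7.80 to 24.9 CPM. Of the 4 hypothalamus markers tested, 3 rose (0.953% of all genes did), Pmch, Avp and Trh (edgeR adjusted p = 0.0435, 0.0443 and 0.0284). With the pairs summed 0 of these 4 were called, and 4 of the 4 and 21.3% of all genes had an unadjusted p under 0.05. Without lemborexant 7, edgeR called 1 of the 4 as higher, against 175 of 18938 genes. The 6 cholinergic markers summed to 0.470 to 9.58 CPM after lemborexant and 0.517 to 1.37 CPM after vehicle. The sums of lemborexant 7, 4 and 9 were highest (9.58, 4.51 and 3.95 CPM), and lemborexant 2 and 6 (2.60 and 1.53 CPM) also passed the vehicle range. Slc18a3, the vesicular acetylcholine transporter gene, reached 2.94, 1.395 and 0.666 CPM in lemborexant 7, 9 and 4, against 0.201 CPM at most after vehicle. It also passed that level in lemborexant 1, 2 and 6 (0.497, 0.397 and 0.232 CPM). The choline transporter gene Slc5a7 ranged over 0.108 to 1.78 CPM after lemborexant and 0.309 to 0.834 CPM after vehicle. The 10 cortical excitatory markers summed to 231 to 854 CPM after lemborexant and 676 to 936 CPM after vehicle, with Neurod6 at 9.86 to 307 CPM and 255 to 469 CPM. Aldh1a1 (dopamine neurons), Gad1 (GABA neurons), Mbp (oligodendrocytes) and Ttr (choroid plexus), the most abundant markers of the other lists, overlapped between the groups. Of the 4 dopamine neuron markers tested, 0 passed in edgeR (3 of the 4 and 25.7% of all genes at an unadjusted p under 0.05) and 0 in DESeq2. Th, the dopamine synthesis enzyme gene that some hypothalamic neurons also use, was 53.6 CPM in lemborexant 7 and 0.470 to 1.85 CPM in the other 9 lemborexant libraries, against 0.347 to 1.25 CPM after vehicle. No marker was at 0 in every library, and the part of any of these tissues in the levels of the 9 genes was not tested.

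Among the 9 genes, likeness was uneven across the 16 units. Each gene's log2 CPM was correlated with the mean of the others, giving r = 0.81 for Isl1, 0.74 for Six3 and 0.70 for Rgs9, but 0.02 for Ppp1r1b. Without lemborexant 7 and the 4 and 9 unit, r was highest for Scn4b (0.77), Isl1 (0.65), Pde10a (0.62) and Six3 (0.56), 0.43 for Rgs9, and lowest for Drd2 (0.19) and Ppp1r1b (0.02). These values describe 16 and 14 units that share library depth and tissue makeup, and they carry no test. The genes most like the mean of the 8, out of 16433 with a mean of at least 1 CPM, were Sv2c (r = 0.907), a synaptic vesicle protein, Galnt13 (0.893), a glycosyltransferase, and Six3os1 (0.893), the antisense neighbour of Six3. Thsd7a (0.873), Gm15261 (0.869), the adhesion molecule Alcam (0.869), the integrin Itga3 (0.867) and the active zone protein Rims3 (0.867) followed. Of these 8, 2 (Thsd7a and Sv2c) were also among the 8 most alike without lemborexant 7. In the 9 vehicle libraries alone, r was 0.51 for Alcam and 0.813 to 0.948 for the other 7.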

How the data were processed

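RNA was sequenced from cortex of 10 lemborexant and 9 vehicle libraries, grouped by the treatment label and numbered within each group. Per the submitters' processing notes, bcl2fastq and DRAGEN 3.9.3-8 were used on GRCm38. The strand setting is not given in the sources used here. The series' design mentions triplicates, but group sizes follow the sample labels. Per the file headers, the deposited tables hold an estimated count and a TPM value per gene. The estimated counts were rounded to whole numbers for count tests, and the deposited TPM values, relative to each library's total and to gene length, were used for levels between genes and for 2 alternatives. Names and positions of genes were taken from a GENCODE annotation of GRCm38 (55227 of 55487 identifiers) and promoter sequences from RefSeq (8 of the 9 genes have a window).

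The main test was edgeR 4.0.16's two-sided quasi-likelihood test (R 4.3.3; robust dispersion, TMM factors, edgeR's expression filter) on all 19 libraries, adjusted by Benjamini-Hochberg across 19105 genes, at a threshold of 0.05. SEs are the absolute log2 change over the root of F. Log2 CPM for correlations used a prior count of 2. A level of 0 is given with the level of 3 reads, which covers counting error only. The tests were checked on simulated counts. Alternatives were RLE factors, no filter, DESeq2 1.42.0, summed pairs, limma 3.58.1 on log2(TPM + 1) and log2(TPM + 0.1) for a mean of at least 1 TPM, the library number range as a covariate or alone, and leaving out each library or unit. Leaving out lemborexant 4 and 9, lemborexant 4, 7 and 9, or lemborexant 7 and vehicle 7 was added after seeing the data.

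The 9 genes and all lists were chosen with earlier results of these data known. Named genes are the 9, a set panel of the other lists, list genes past the threshold, the 8 genes with the highest r, and the most abundant marker of each other tissue, save 2 that are not reported here.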

Additional observations from a re-analysis of the deposited data

Results flagged for a closer look

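Of 18 groups of libraries searched (9 genes in each treatment), 5 held a library whose gap to its nearest neighbour was large against the range of its group. Chance passes about 1 in 20 groups of independent values. Here the groups share libraries and the genes were chosen with these levels known, so the count is a description. Lemborexant libraries of the nearly alike pairs each have a close neighbour, so the rule was unlikely to flag them. Isl1 stood at 44.6 CPM in lemborexant 7, a gap of 0.924 of the range of the 10 lemborexant libraries. Six3 stood at 15.6 CPM in the same library (0.681 of the range), and Rgs9 at 25.4 CPM (0.567). Isl1 stood at 1.18 CPM, or 25 reads, in vehicle 4, a gap of 0.641 of the range of the 9 vehicle libraries. Gpr6 stood at 2.06 CPM, or 42 reads, in vehicle 1 (0.520 of the range).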

How the results depend on the processing

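Calls depended on how libraries were counted. The main test called 2.61% of 19105 genes. DESeq2 called 3.97% as higher and 4.71% as lower, out of 21637 genes with an adjusted p. Over all genes 498 were called, 514 with RLE factors, 254 with no expression filter, 1879 with DESeq2, 0 with pairs summed (4101 at an unadjusted p under 0.05), 118 on log2(TPM + 1), 26 on log2(TPM + 0.1), 294 with the number range as a covariate, 8 within libraries 1064 to 1602 and 0 within 859 to 933 (3 against 2 libraries, 910 at an unadjusted p under 0.05). None were called without lemborexant 4 and 9 (3563 at an unadjusted p under 0.05) or without 4, 7 and 9 (2956), and 307 without lemborexant 7 and vehicle 7. Leaving out 1 library gave 31 to 1274 calls, and leaving out 1 unit with pairs summed 0 to 816 (816 without lemborexant 1 and 10). Of the 9 genes, where 1 was called, 2 were called by DESeq2 (Drd1 and Six3) and 0 with no filter, pairs summed, either TPM scale, the covariate, either number range, or the removals of lemborexant 4 and 9 and of 4, 7 and 9. Leaving out 1 library gave 0 to 2, as did leaving out 1 unit, and Drd1 passed in 9 of the 19 fits without 1 library, at log2 changes of 1.05 to 1.41. Of the other medium spiny neuron genes, where 0 were called, DESeq2 called 5, removing lemborexant 7 and vehicle 7 gave 1, removing 1 library 0 to 2 and removing 1 unit 0 to 3. Of the dopamine and cyclic AMP genes, 2 were called, DESeq2 called 7, no filter and the covariate 1, and pairs summed, both TPM scales, both ranges and all 3 added removals 0, with 0 to 4 without 1 library and 0 to 3 without 1 unit. Of 7 sodium channel genes, partners of Scn4b, 1 was called, and 0 with pairs summed, the TPM scales, the covariate, either range and both removals of lemborexant 4 and 9, with 0 to 1 without 1 library or unit. The causes were not tested. The log2 change of Pde10a turned to -0.0042 with pairs summed, -0.0052 within libraries 1064 to 1602 and as low as -0.073 without 1 unit with pairs summed (up to 0.14 without 1 library), that of Penk to -0.056 and that of Prkar2b to -0.066 without lemborexant 4, 7 and 9. In the settings above, the log2 changes of Drd1, Drd2, Gpr6, Ppp1r1b, Rgs9, Scn4b, Six3, Adora2a, Tac1, Pdyn, Adcy5, Drd5, Gnal and Prkacb kept their sign. No paired analysis was possible because the labels give no replicate number shared between the groups. At 20185098 reads or more, 1 CPM is at least 20 reads, and Isl1, Six3, Gpr6 and Drd2 lie near or below that in many libraries.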
